A study of Mus musculus with 4 samples.

Results

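The forkhead motifs outside the Foxo and Foxp subfamilies were followed in splenic regulatory T cells (Tregs) of mice given venetoclax or vehicle. They were taken from a table of chromVAR deviation scores as every entry whose factor symbol starts with Fox, leaving out symbols starting with Foxo or Foxp. The rule gave 165 of 1346 motif entries, for 32 symbols. Entries with the same scores in all samples were counted once, which left 64 distinct sets of scores of 976 in the whole table. The cells were CD4+ FOXP3+ Tregs from the spleen of B6.Cg-Foxp3tm2Tch/J mice, which carry GFP behind an IRES at Foxp3 and are labelled WT in both groups. Mice of one group received vehicle and those of the other 50 mg/kg venetoclax, which blocks the survival protein BCL-2, both for 14 days, with 2 samples in each group. The age of the mice is not given in the sources used here. The samples are titled as biological replicates, with no number of animals given for a sample. The spread between such samples supplied 2 of the 21.0 degrees of freedom behind the limma p-values. The rest came from a spread shared over all motif entries, so the SE of a set can be smaller than its own samples would give. Accessible chromatin was read by ATAC-seq, and a motif's score compares the accessibility of peaks holding the motif with a background expectation. The zero of the score depends on the samples scored together, which the sources used here do not name, and the table has 8 further sample columns that were not used. Above and below 0 are therefore relative to an unnamed set of samples. Depth per sample is unknown because the scores have no unit and come without read counts, and the table holds no expression with which the labelled cell type could be checked.

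Forkhead factors bind DNA through a winged helix domain that is highly similar across the family, and many members recognise nearly the same short core sequence. A forkhead motif therefore does not tell which family member, if any, is bound. In Tregs the best known members are Foxp3 and Foxo1. The other subfamilies are known mostly from embryonic and epithelial development, while Foxj, Foxk and Foxm factors also act in lymphocytes, metabolism or the cell cycle. In the table, entries of different symbols often carried identical scores, which is not a measure of how similar different motifs are. In all, 27 sets belonged to a single symbol and 37 to several, and 34 were shared between subfamilies. Foxa3, Foxd4, Foxl1 or Foxl2 took part in 39 sets, and 13 sets carried exactly these symbols. Of the 64 sets, 32 were also held by an entry without a Fox symbol, Gm5294 in 23 and the unnamed ENSMUSG00000090020 in 9, while none was shared with a Foxo or Foxp entry. Because forkhead motifs are alike, the sets are not independent of each other. A set was counted in every subfamily that holds it.

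The forkhead sets scored high with vehicle and low in 1 of the 2 venetoclax samples. Their mean score was 0.52 and 0.75 in vehicle replicates 1 and 2, 0.45 in venetoclax replicate 1 and -0.83 in venetoclax replicate 2. The mean over all 976 sets was 0.12 and 0.13 with vehicle, 0.049 in venetoclax replicate 1 and -0.23 in venetoclax replicate 2. Venetoclax replicate 1 thus lay close to the vehicle samples on average, and venetoclax replicate 2 was the sample that stood apart. By group the forkhead mean was 0.63 ± 0.16 for vehicle and -0.19 ± 0.90 for venetoclax (SD, n = 2 each).

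**Figure D1:**
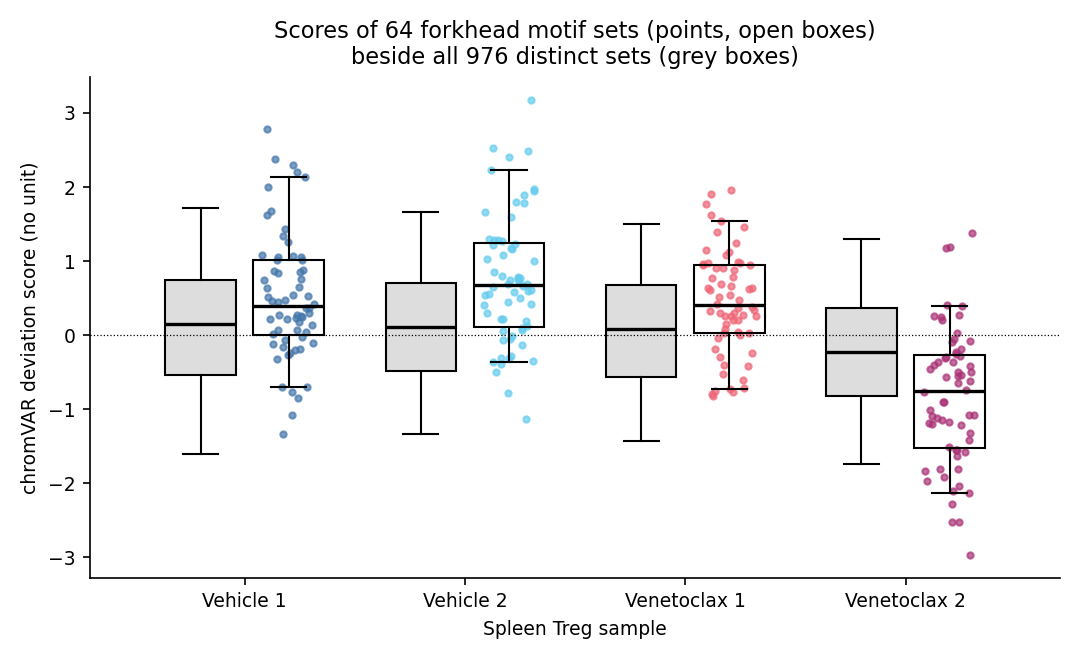
chromVAR deviation score (vertical axis, no unit) in each of the 4 samples (horizontal axis) for the 64 forkhead sets (points and open boxes) and all 976 distinct sets (grey boxes); boxes span the middle 50%, whiskers the 5th to 95th percentile, and the thick line is the median. The forkhead median was 0.39, 0.68 and 0.41 in the first 3 samples and -0.76 in venetoclax replicate 2.

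No forkhead set passed an adjusted p of 0.05 in limma fitted on all 1346 entries, and neither did any other set (0% of 976). At an unadjusted p under 0.05 there were 18 forkhead sets, 17 lower and 1 higher with venetoclax, against 11.1% of all sets lower and 5.94% higher. The 17 lower sets were 26.6% of the 64, and the 1 higher set 1.56%. A negative difference was found for 49 of the 64 sets (76.6%) and for 60.8% of all sets. With scores centred on the median of their sample the shares were 68.8% and 48.8%. The median difference, venetoclax minus vehicle, was -0.65 over the forkhead sets and -0.23 over all sets, which puts the forkhead sets 0.42 score units lower. Without venetoclax replicate 2 the medians were -0.14 and -0.10, so the forkhead sets were then at -0.04 relative to all sets.

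Both venetoclax samples lay below both vehicle samples in 29 forkhead sets (45.3%), where all sets gave 30.2%. They lay above both in 3 sets (4.69%), where all sets gave 18%. The groups overlapped in the other 32. Venetoclax replicate 2 was below both vehicle samples in 52 of the 64 sets (81.2%, against 51.9% of all sets), and venetoclax replicate 1 in 30 (46.9%, against 38.6%). In 16 sets (25%) venetoclax replicate 1 was above both vehicle samples, against 30.2% of all sets. The venetoclax samples were further from each other than the vehicle samples were in 56 of the 64 sets (87.5%, against 61.6% of all sets). The median gap within a group was 0.36 with vehicle and 1.40 with venetoclax over the forkhead sets, and 0.54 and 0.81 over all sets.

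Counts of calls depended on single samples and on the variance model. Without venetoclax replicate 1, limma called 24 forkhead sets lower (15.8% of all sets were) and 1 higher (6.97% of all sets were), with the remaining venetoclax sample assumed to vary like the vehicle samples. When the prior variance could depend on the mean and was made robust to outliers, it called 7 forkhead sets lower (3.48% of all sets were) and 0 higher (2.05% of all sets were). Among the 7 were Foxa1, both Foxa2 sets, the set of Foxf1a and Foxf2, the set of Foxa3 and Foxl1, and the lowest set of Foxn2 and Foxn3. At an unadjusted p under 0.05 there were 4 forkhead sets (6.25%, against 8.3% of all sets) without venetoclax replicate 2. Without vehicle replicate 2 there were 5 (7.81%, against 3.59% of all sets).

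The Foxa factors are pioneer factors that open chromatin in endoderm and its organs. The Foxa1 motif scored 2.78 and 3.18 in the vehicle samples and 1.40 and -2.97 in the venetoclax samples, so that venetoclax minus vehicle was -3.76 (SE 0.96) with a limma adjusted p of 0.132. It had the highest mean vehicle score of the 64 sets and the lowest score of all of them in venetoclax replicate 2. One Foxa2 motif scored 2.14 and 2.49 in the vehicle samples and 0.30 and -2.53 in the venetoclax samples, and differed by -3.43 (SE 0.81) with a limma adjusted p of 0.0851. The second Foxa2 motif had lower scores throughout, -0.24 and 1.28 in the vehicle samples and -0.72 and -2.28 in the venetoclax samples, with a difference of -2.02 (SE 0.76) with a limma adjusted p of 0.178. In these 3 sets the groups did not overlap, and venetoclax replicate 1 lay between vehicle and venetoclax replicate 2. Without venetoclax replicate 2 the differences were -1.58 for Foxa1 and -2.01 and -1.24 for the Foxa2 sets. The remaining 28 Foxa sets, those of Foxa3, were shared with other subfamilies and ran from -2.14 to 1.76.

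Foxf1a and Foxf2, which act in gut and lung mesenchyme, share 1 set. It scored 2.37 and 2.52 in the vehicle samples and 0.21 and -2.52 in the venetoclax samples, a difference of -3.61 with a 95% interval from -5.27 to -1.94 (limma adjusted p = 0.0664). This was the smallest adjusted p among the 64 sets. Both venetoclax samples were over 2 score units below both vehicle samples, and the difference was -2.24 without venetoclax replicate 2. Together with Foxa1 and the lower Foxa2 set it made up 3 of the 10 lowest differences among all 976 sets. Of the 50 lowest, 13 were among these 64 sets, and of the 50 highest, 1 was. Foxo and Foxp sets are not in these counts, although Foxo1 had the lowest difference of all.

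Foxc1 and Foxc2, factors of mesoderm and vessels, had 3 sets, all with negative differences. The lower Foxc1 set scored 1.63 and 1.94 in the vehicle samples and 0.87 and -1.81 in the venetoclax samples, a difference of -2.25 (SE 0.80) with a limma adjusted p of 0.174. The set of Foxc2 and Foxs1, a factor of pericytes, was at -2.19 (SE 0.78) with the same order of samples. The second Foxc1 set was at -0.84, and its groups overlapped. Foxq1, known from hair and epithelia, had a single set that scored 2.00 and 1.89 in the vehicle samples and 0.97 and -1.17 in the venetoclax samples, a difference of -2.04 (SE 0.76). The set of Foxd2 and of Foxe3, a lens factor, was at -2.03 (SE 0.79), with 1.34 and 1.66 in the vehicle samples and 0.77 and -1.83 in the venetoclax samples. In each of these sets with a difference below -2, venetoclax replicate 1 lay below both vehicle samples but above 0, and venetoclax replicate 2 below 0. Without venetoclax replicate 2 the differences shrank to -0.91 for the lower Foxc1 set, -0.97 for Foxc2 with Foxs1, -0.97 for Foxq1 and -0.73 for Foxd2 with Foxe3. The second Foxc1 set was then at -0.10.

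**Figure D2:**
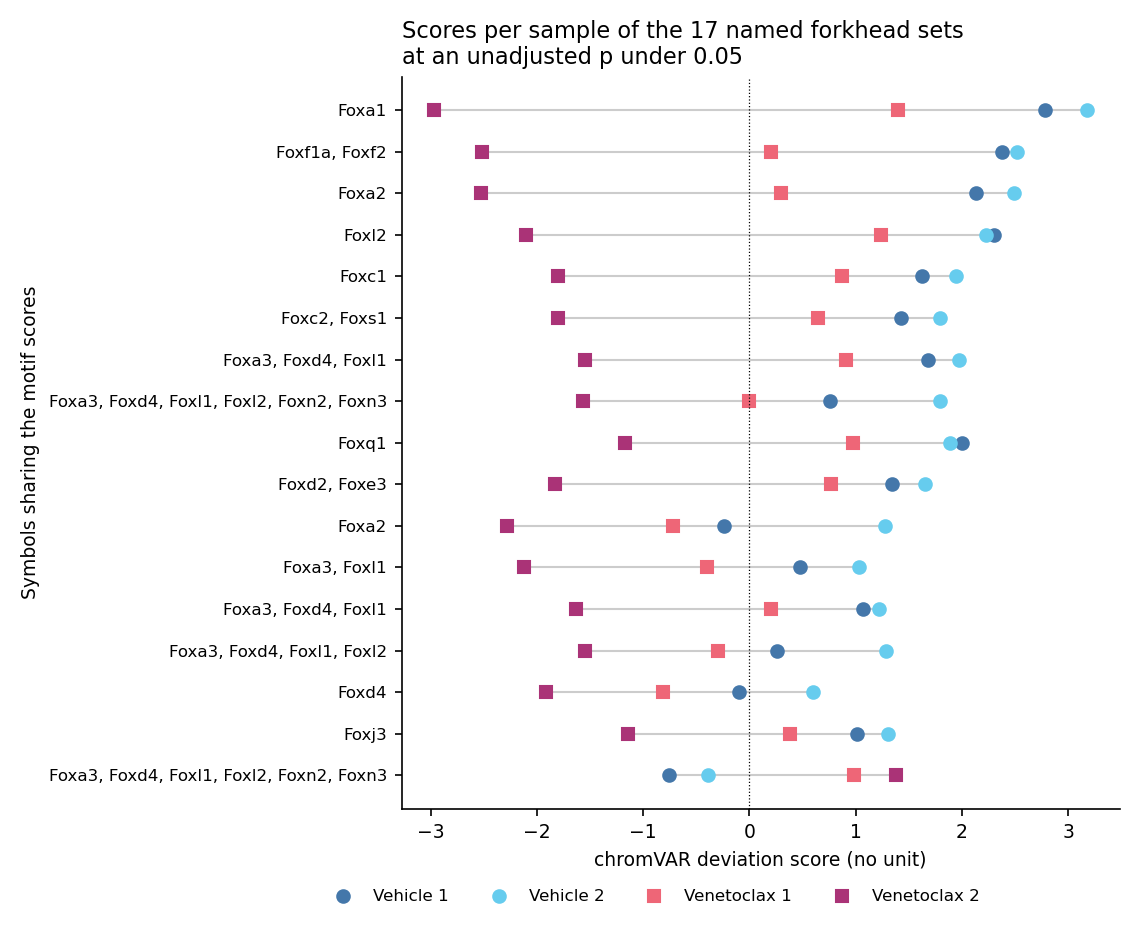
chromVAR deviation scores (horizontal axis, no unit) of 17 named forkhead sets at an unadjusted p under 0.05, 1 row per set named by the symbols that share it, with vehicle samples as circles and venetoclax samples as squares; grey lines join the lowest and highest sample. In every row but the last both squares lie left of both circles, and venetoclax replicate 2 is the lowest sample; in the last row both squares lie right.

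Foxl2, a factor of ovarian granulosa cells, had 29 sets and Foxl1, a factor of gut mesenchyme, had 28. The lowest Foxl2 set scored 2.30 and 2.23 in the vehicle samples and 1.24 and -2.10 in the venetoclax samples, a difference of -2.69 (SE 0.86) with a limma adjusted p of 0.15. Its difference was -1.02 without venetoclax replicate 2 and -4.37 without venetoclax replicate 1. The 37 Foxl sets had a median of -0.53, and 28 were negative. The 31 Foxd sets, 30 of them held by Foxd4 and most of them shared with Foxa3 or a Foxl factor, had a median of -0.63 with 24 negative. Their lowest set, shared by Foxa3, Foxd4 and Foxl1, scored 1.68 and 1.97 in the vehicle samples and 0.91 and -1.55 in the venetoclax samples, a difference of -2.14 (SE 0.78). The set held by Foxd4 alone that reached an unadjusted p under 0.05 was at -1.62 (SE 0.71). Further shared sets reached it, that of Foxa3 and Foxl1 at -2.01, another of Foxa3, Foxd4 and Foxl1 at -1.86, and 1 of the 13 sets of Foxa3, Foxd4, Foxl1 and Foxl2 at -1.70. Without venetoclax replicate 2 the sets of Foxa3, Foxd4 and Foxl1 were at -0.92 and -0.94, that of Foxd4 alone at -1.06, that of Foxa3 and Foxl1 at -1.15 and that with Foxl2 at -1.07. One symbol thus covered motifs with quite different scores.

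The single set with a higher score at an unadjusted p under 0.05 carried Foxa3, Foxd4, Foxl1, Foxl2, Foxn2 and Foxn3. It scored -0.76 and -0.39 in the vehicle samples and 0.98 and 1.38 in the venetoclax samples, a difference of 1.76 (SE 0.69) with a limma adjusted p of 0.19. Its venetoclax samples lay close together. Leaving out any 1 of the 4 samples kept the difference between 1.56 and 1.96. Another set with exactly the same symbols had a difference of -2.06 (SE 0.74) with a limma adjusted p of 0.174. It scored 0.76 and 1.79 in the vehicle samples, with a score near 0 in venetoclax replicate 1 and -1.57 in venetoclax replicate 2, and its difference was -1.27 without the latter.

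Foxn2 and Foxn3, relatives of the thymic factor Foxn1, took part in 11 sets, of which 7 were negative, with a median of -0.56. Besides both sets just described, the Foxn2 sets shared with Foxa3, Foxd4, Foxl1 and Foxl2 were at -1.24, -1.09, -0.87 and 0.86, and the set of Foxl2, Foxn2 and Foxn3 was at 0.20. Those of Foxn2 shared with Foxj3 are given with the Foxj sets. The sets held by Foxn3 alone were at -0.32 and 0.63, the latter with both venetoclax samples (0.48 and 0.25) above both vehicle samples (-0.027 and -0.50).

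Foxj1 drives motile cilia and restrains T cell activation, and Foxj2 and Foxj3 are broadly expressed relatives. All 6 Foxj sets had negative differences, with a median of -0.82. The lowest, of Foxj3, scored 1.02 and 1.31 in the vehicle samples and 0.38 and -1.14 in the venetoclax samples, a difference of -1.54 (SE 0.72) with a limma adjusted p of 0.272. A second Foxj3 set, at 2.21 and 1.28 in the vehicle samples and 0.90 and -0.18 in the venetoclax samples, differed by -1.39 (SE 0.72). The groups did not overlap in either, and the differences were -0.78 and -0.84 without venetoclax replicate 2. The Foxj2 set was at -0.93, the Foxj1 set, shared with Foxa3, Foxd4 and Foxl1, at -0.72, and the set of Foxj3 and Foxn2 at -0.66, each with overlapping groups. Without venetoclax replicate 2 these 3 were above 0, at 0.044, 0.042 and 0.23. The set of Foxj3, Foxl2 and Foxn2 was at -0.56, with -0.12 and -0.30 in the vehicle samples and -0.79 and -0.74 in the venetoclax samples, so both venetoclax samples were below both vehicle samples and close to each other.

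Foxk1 and Foxk2, which regulate autophagy and glycolysis, had 2 sets of opposite sign. The set they share scored 0.28 and 1.17 in the vehicle samples and 0.64 and -1.19 in the venetoclax samples (difference -1.0, SE 0.75), and the set of Foxk1 alone -1.33 and 0.12 in the vehicle samples and 0.34 and -0.64 in the venetoclax samples (difference 0.45, SE 0.73). The groups overlapped in both. Foxm1, which drives genes of mitosis, had 3 sets, at -0.65, 0.19 and 0.52. In the first, vehicle gave 0.074 and 1.17 and venetoclax 1.16 and -1.21. In all 3 Foxm1 sets venetoclax replicate 1 scored from 0.95 to 1.16 and venetoclax replicate 2 from -1.21 to -0.049, and the groups overlapped. The 95% intervals of the 3 Foxm1 differences ran from -2.30 to 1.00, from -1.33 to 1.72 and from -0.94 to 1.97. Each leaves room for either sign.

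Foxh1, a partner of Smads in nodal signalling, had 1 set at -0.53 (SE 0.68), with 0.071 and 0.45 in the vehicle samples and -0.24 and -0.30 in the venetoclax samples. The set of the ionocyte factor Foxi1 with Foxi2 and Foxi3, also shared with Foxa3, Foxd4 and Foxl1, was at -0.40, and that of Foxb1 and Foxb2, factors of the early brain, at -0.20. The set of the thyroid factor Foxe1 and the neural crest factor Foxd3, shared with Foxa3, Foxd4, Foxl1 and Foxl2, was at -1.32 (SE 0.97). In these last 3 sets the groups overlapped, and the sign was positive without venetoclax replicate 2. The sign of the Foxb set was also positive with scores centred per sample (0.064).

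**Figure D3:**
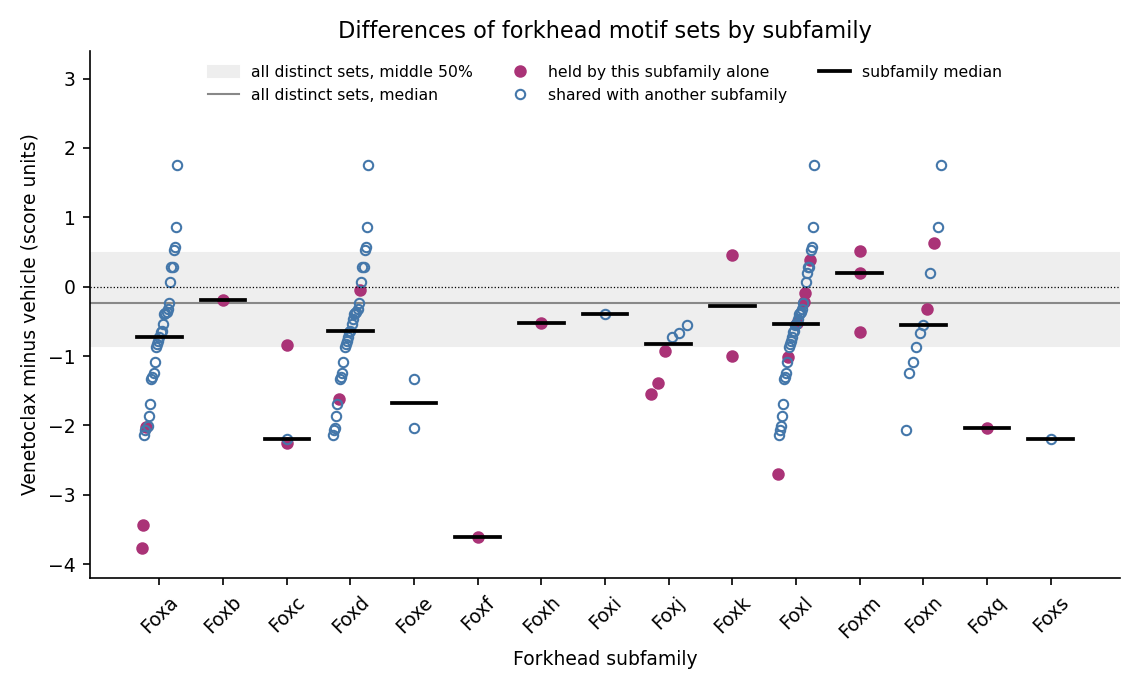
Difference of the forkhead sets reported here, venetoclax minus vehicle in score units (vertical axis), by subfamily (horizontal axis); filled points are sets held by that subfamily alone, open points are shared and appear under each subfamily that holds them, black lines are subfamily medians, and the grey band and line give the middle 50% and median (-0.23) of all distinct sets. The medians run from -3.61 for Foxf to 0.19 for Foxm, and every Foxc and Foxj set is below 0.

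Across the subfamilies reported here the median difference was lowest in Foxf (1 set), Foxc (-2.19, 3 sets), Foxs (-2.19, 1 set), Foxq (-2.04, 1 set) and Foxe (-1.68, 2 sets). It was -0.72 in Foxa and 0.19 in Foxm. Without venetoclax replicate 2 the medians were -2.24 in Foxf, -0.91 in Foxc, -0.97 in Foxs, -0.97 in Foxq, -0.06 in Foxe, -0.29 in Foxa and 0.91 in Foxm, so that all but Foxf were above -1 and the order changed. The 30 sets held by 1 subfamily had a median of -0.75 with 23 negative, and the 34 shared sets had a median of -0.64 with 26 negative. Entry names end in D or I, which in CIS-BP motif names stand for motifs measured directly and inferred from a related protein. The sets of Foxa1, of Foxf1a with Foxf2 and of Foxq1 and the lowest Foxl2 set hold I entries only. Both Foxa2 and both Foxc1 sets hold a D entry. The 18 sets with a D entry had a median of -0.88 and the 46 sets with I entries only had a median of -0.53. Whether these groups of sets differ was not tested.

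Of the 64 sets, 17 (26.6%) scored above 1 in vehicle replicate 1, against 17.9% of all sets. In these 17 the median was 1.66 in vehicle replicate 2, 0.78 in venetoclax replicate 1 and -1.63 in venetoclax replicate 2, and 15 (88.2%) were below 0 in venetoclax replicate 2 but 0 in venetoclax replicate 1. The 175 such sets of the whole table had medians of 0.95, 0.79 and -0.33, and 119 (68%) were below 0 in venetoclax replicate 2. In the 47 forkhead sets at 1 or less the medians were 0.54, 0.30 and -0.55, and 39 (83.0%) were below 0 in venetoclax replicate 2. Scores below 0 in that sample were thus common on both sides of 1. Across the 64 sets Pearson's r was 0.70 between the vehicle samples, 0.40 and 0.38 between venetoclax replicate 1 and the vehicle samples, and -0.44 and -0.83 between venetoclax replicate 2 and vehicle replicates 1 and 2. Across all 976 sets, in the same order, r was 0.60, 0.59 and 0.37, and -0.17 and -0.72. Between the 2 venetoclax samples r was 0.0065 over the 64 sets and 0.12 over all 976. These are descriptions over sets that share peaks, libraries and similar motifs, and chromVAR sets its scores against the average of the samples it is given.

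**Figure D4:**
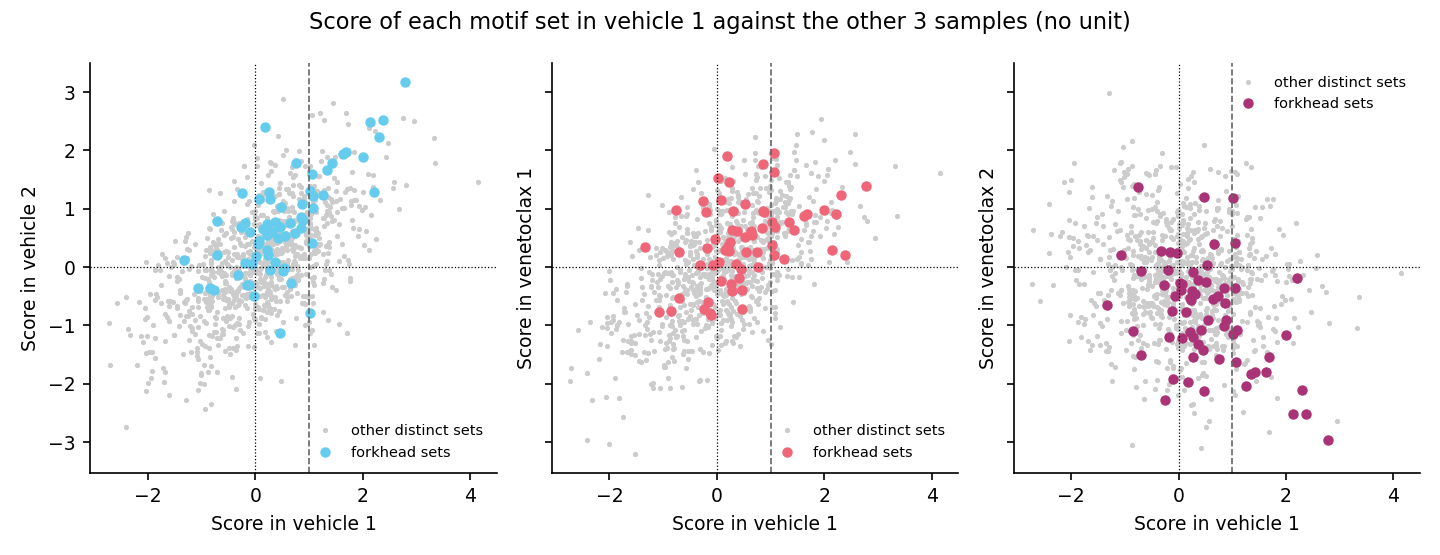
Score of each motif set in vehicle replicate 1 (horizontal axes) against its score in vehicle replicate 2, venetoclax replicate 1 and venetoclax replicate 2 (vertical axes, left to right, no unit), with the 64 forkhead sets in colour, other sets in grey and a dashed line at a score of 1. Right of the dashed line the forkhead sets lie mostly above 0 in the first 2 panels and 15 of 17 lie below 0 in the third, as do 39 of the 47 left of it or on it.

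The Foxo and Foxp sets, the nearest relatives in the table, had negative differences in all 4 and all 3 cases. Foxo4, however, was at 0.035 after centring and 0.029 after quantile normalization. Its score in venetoclax replicate 1 (-0.27) was above both vehicle samples (-0.30 and -0.36), so its negative sign rested on venetoclax replicate 2. Foxo1 scored 2.95 and 2.51 in the vehicle samples and 0.50 and -2.64 in the venetoclax samples. As in Foxa1, Foxa2 and the Foxf set, venetoclax replicate 1 thus lay between the vehicle samples and venetoclax replicate 2. The difference of Foxo1, -3.80 (limma adjusted p = 0.0664), was the lowest of all 976 sets, below that of every other forkhead set. The other Foxo sets ran from -1.04 to -0.23. The Foxp sets had differences closer together, from -1.61 for Foxp1 to -1.41 for Foxp2. Their scores in venetoclax replicate 1 were further apart, at -1.34 for Foxp1, 0.15 for Foxp3 with Foxp4 and 1.06 for Foxp2. The last lay between its vehicle samples (1.01 and 1.39). In each of these 7 sets venetoclax replicate 2 was the lowest sample, as it was in 50 of the 64 other forkhead sets (78.1%) and in 44.9% of all sets. Whether the forkhead sets differ from the Foxo or Foxp sets was not tested.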

How the data were processed

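The authors deposited 1 table with a chromVAR deviation score per motif entry and sample, per the file's name. Per the submitters' processing notes, the tools were Bowtie2, Picard and MACS2 and the build mm10, with no version or role for any of them. The peak set, the background, the motif collection, read filters and the kind of score (a z-score or a corrected deviation) were not given in the sources used here. Motifs have no genome position, and motif matrices were not used here. Of 12 sample columns, 8 match no described sample and were not used. The deposited rank and difference were used only as a check, and the difference equalled the one computed here within 1e-09.

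Symbols were read from the entry identifiers, since for 28 entries the name column holds another part of the identifier. Of 32 symbols, 31 matched RefSeq names of GRCm38.p6 and 1 (Foxf1a) an older symbol. Scores equal to 9 decimals were 1 set. Scores were tested as deposited with limma 3.58.1 (R 4.3.3), two-sided, over all 1346 motifs with Benjamini-Hochberg adjustment, threshold 0.05, which gave 21.0 degrees of freedom, 2 of them from the samples; for sets whose venetoclax samples lay far apart, the shared spread gives a smaller SE than their own samples would. The fit was tested on simulated scores, which were independent and had a common spread for every motif and both groups. In the deposited scores the venetoclax samples were mostly further apart than the vehicle samples, which that check does not cover. Shares of sets are given beside those over all 976 sets.

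Named were the lowest and highest set of each subfamily, all sets at an unadjusted p under 0.05, all Foxj, Foxk, Foxm and Foxn sets, and the outer Foxo and Foxp sets. A few sets that this rule names are counted among the 64 but not reported here. The members and lists were chosen with earlier results of these data known. The alternatives were each sample left out, a replicate block, 3 scalings, 1 entry per set, 2 other variance models and an adjusted p of 0.10.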

Additional observations from a re-analysis of the deposited data

How the results depend on the processing

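The count of 0 forkhead sets past the adjusted threshold was also found after each scaling, with 1 entry per set, in an ordinary linear model and with the replicate block. It was 7 with a mean-dependent and robust variance, 2 at an adjusted p of 0.10, and between 0 and 25 after leaving out single samples, the highest without venetoclax replicate 1. The count of sets at an unadjusted p under 0.05 was 18 in the main fit, 7 with the replicate block and 2 in the ordinary linear model. Those 2 were the higher set of Foxa3, Foxd4, Foxl1, Foxl2, Foxn2 and Foxn3, and the set of Foxj3, Foxl2 and Foxn2. The latter was not among the 18 (limma unadjusted p = 0.42). None of the 17 lower sets was thus under 0.05 in the ordinary linear model. With a sample left out the count ranged from 4 to 35. The cause was not tested. Shares over all sets are not given for the replicate block, the ordinary linear model or the adjusted p of 0.10. The counts under these settings therefore do not set the forkhead sets apart from other sets. The replicate numbers are not said to pair the samples, and deviations of same-numbered samples had r = -0.22 over 976 sets. The median relative to all sets ranged from -1.08 to -0.04 and the share of negative sets from 60.9% to 84.4% with a sample left out. The lowest share, without venetoclax replicate 2, stood against 55.4% of all sets. The highest, without venetoclax replicate 1, stood against 59.9%. Centring each sample on its median or quantile normalization gave 68.8% negative sets, against 48.8% and 49.9% of all sets. These 2 scalings moved the median of all sets from -0.23 to 0.03 and to 0.00.

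Of 39 named sets, 28 kept their sign in all 11 refits, among them the 17 named ones at an unadjusted p under 0.05. The replicate block, 1 entry per set and the 2 other variance models leave every difference as it is. In those 17 sets the groups did not overlap, so leaving out 1 sample could not change their sign. For them only the 3 scalings could have changed it. The set of Foxb1 and Foxb2 was at 0.064 after centring and at 0.053 after quantile normalization. Leaving out single samples gave ranges from -0.91 to 0.51 for that set, from -3.26 to 0.61 for Foxe1, from -1.89 to 0.044 for Foxj2, from -1.48 to 0.042 for Foxj1, from -1.55 to 0.23 for Foxj3 with Foxn2, from -1.83 to 0.54 and from -0.52 to 0.91 for Foxm1 sets, from -1.59 to 0.80 for Foxi1, from -0.80 to 1.20 for Foxl2 with Foxn2 and Foxn3, from -0.27 to 1.18 for Foxk1 alone and from -0.042 to 1.76 for the highest set of Foxn2 without Foxn3. The depth per sample is unknown, and 2 samples per group gave a median 95% interval of 1.51 score units to either side.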
